A study of Mus musculus with 13 samples.

Results

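The 8 genes Pdk4, Angptl4, Cpt1a, Cpt1b, Cpt2, Acadm, Hadha and Ehhadh are regulated in fasting and carry out or gate the burning of fatty acids. They were taken from the 54532 genes of the deposited table by their symbols, each of which had 1 row. The table covers a subcutaneous depot, the inguinal white fat, of 13 mice in 3 groups. SF_HPD held 5 mice whose sleep was fragmented and who ate a high-protein diet. SF_ConD held 5 mice on chow whose sleep was fragmented, and SC_ConD 3 mice on chow that slept normally. In the high-protein diet, protein supplied 50% of the calories, carbohydrate 38% and fat 12%. Tissue from each mouse was taken after a fast of 12 h. All groups were fasted, so a response to fasting itself could not be measured, and there was no group with normal sleep on the high-protein diet. The sources used here give no strain, sex, age or length of the sleep treatment. The labels describe individual mice, and each library was taken as 1 animal.

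In a fast, adipocytes release fatty acids from stored fat, and tissues shift from glucose to fatty acids as fuel. The fatty acids also bind the nuclear receptors of the PPAR family, which raise transcription of many oxidation genes in liver, muscle and fat, and forkhead factors of the FOXO family act on some of the same genes when insulin is low. White fat stores lipid and burns little of it, whereas brown and beige adipocytes are rich in the oxidation enzymes. The 8 genes cover successive steps. Pdk4 encodes a kinase that switches off pyruvate dehydrogenase and so spares glucose. Angptl4 encodes a secreted inhibitor of lipoprotein lipase. Cpt1a, Cpt1b and Cpt2 encode the carnitine palmitoyltransferases that bring long-chain fatty acids into mitochondria. Acadm and Hadha encode enzymes of the mitochondrial oxidation spiral, and Ehhadh a bifunctional enzyme of the peroxisome.

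RefSeq promoter sequence on GRCm38.p6 was at hand for 6 of the 8 genes, and Angptl4 and Cpt1b had no entry. Shown are the stretches upstream of the annotated exons for the genes with the widest spread between libraries and an entry (Pdk4 and Ehhadh), for the gene with the highest level (Acadm) and for the gene whose levels differed most from the pattern of the rest (Cpt1a). They read 5′ to 3′ on the strand of the gene, and capitals mark a match to the half-site AGGTCA, bound by PPAR and other nuclear receptors, here on the opposite strand. They lie at chr6:5496310-5496528 on the minus strand for Pdk4, chr16:21787835-21788084 on the minus strand for Ehhadh, chr3:153944644-153944893 on the minus strand for Acadm and chr19:3323051-3323284 on the plus strand for Cpt1a.
Pdk4: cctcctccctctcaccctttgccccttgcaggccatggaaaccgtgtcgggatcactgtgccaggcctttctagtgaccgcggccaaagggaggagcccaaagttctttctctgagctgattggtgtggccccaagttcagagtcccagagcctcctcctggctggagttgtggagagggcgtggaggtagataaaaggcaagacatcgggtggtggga
Ehhadh: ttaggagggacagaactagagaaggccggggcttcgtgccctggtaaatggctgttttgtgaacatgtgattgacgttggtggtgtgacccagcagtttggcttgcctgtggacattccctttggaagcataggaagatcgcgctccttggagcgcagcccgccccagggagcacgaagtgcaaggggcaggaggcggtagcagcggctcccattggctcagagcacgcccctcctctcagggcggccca
Acadm: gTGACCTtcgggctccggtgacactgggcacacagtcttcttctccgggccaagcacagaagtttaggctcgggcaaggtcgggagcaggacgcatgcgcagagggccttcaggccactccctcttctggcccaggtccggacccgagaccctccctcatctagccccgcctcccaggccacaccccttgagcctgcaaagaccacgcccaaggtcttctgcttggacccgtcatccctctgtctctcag
Cpt1a: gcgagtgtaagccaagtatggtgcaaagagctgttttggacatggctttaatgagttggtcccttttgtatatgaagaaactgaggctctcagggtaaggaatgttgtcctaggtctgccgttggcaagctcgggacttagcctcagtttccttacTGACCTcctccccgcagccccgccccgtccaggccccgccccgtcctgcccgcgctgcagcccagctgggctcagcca

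On both strands of the 250 bases before the start site, the half-site AGGTCA occurred once in Acadm, 249 bases before the start, and once in Cpt1a, 94 bases before it. It occurred in none of Pdk4, Cpt2, Hadha and Ehhadh, and in 14.0% of 32851 promoter windows of that length. The direct repeat AGGTCANAGGTCA, which contains the half-site, was found in 0.0335% of these windows, and the forkhead sequence GTAAACA in 3.17%. Neither was found in the windows of the 6 genes. Such matches describe the letters only.

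The files gave 14815592 to 18303302 reads per library, recovered from the steps of the deposited values. Levels are in FPKM, reads scaled to the length of the gene and to a divisor for each library. The divisor was not the recovered total of the library but 0.479 (SF_HPD 2) to 1.23 (SF_HPD 1) times that total. FPKM sums differed 5.03-fold between libraries. Libraries also differed in tissue content. SF_HPD 2 was poor in adipocyte transcripts, with 26.1 FPKM of Adipoq, the adipocyte hormone adiponectin, against 666 to 4231 FPKM in the other 12 libraries. It was also rich in the epithelial keratin Krt18, with 5015 FPKM against 0.968 to 743 FPKM in the other 12. Hepatocyte transcripts were high in SC_ConD 2 and 3, where Alb, the liver's albumin, had 4223 and 1614 FPKM. Skeletal muscle transcripts were high in SF_HPD 4 and SC_ConD 3, with 1151 and 210.4 FPKM of the muscle creatine kinase Ckm. The B cell gene Cd79a had 60.7 to 196 FPKM in SF_HPD 4 and 5 and SF_ConD 1, 4 and 5, and at most 4.46 FPKM in the rest. In SF_HPD 1 and 4, SF_ConD 3 and SC_ConD 1, long genes were relatively high, with a Spearman rho of 0.484 to 0.563 between gene length and the deviation of the library from the mean, against -0.436 to 0.032 in the other 9. In bulk tissue, fewer cells of a type and less RNA per cell cannot be told apart.

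Averaged over the 13 libraries, the order of the levels was Acadm at 114 ± 56.1 FPKM, Angptl4 at 83.1 ± 36.8, Pdk4 at 64.7 ± 60.6, Cpt2 at 55.1 ± 29.4, Hadha at 34.2 ± 15.9, Ehhadh at 30.5 ± 26.0 and Cpt1a at 14.1 ± 5.75 FPKM (SD, n = 13). Cpt1b came last at 0.0856 FPKM. Neighbours in this order differed by less than the larger of their SDs, except Cpt1a and Cpt1b. Acadm had the highest mean FPKM in all 3 groups, and Angptl4 the second highest. On TPM, levels rescaled to the same total in each library, Acadm was again the highest in all 3 groups. Pdk4 was then second in SF_HPD, at 192 TPM against 181 of Angptl4, and in SC_ConD, at 218 TPM against 205. The levels of 7 genes were at or above the 76.3rd percentile of the 14421 genes kept for testing. Cpt1b was not among the genes kept, which had at least 1 FPKM in at least 3 libraries.

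**Figure D1:**
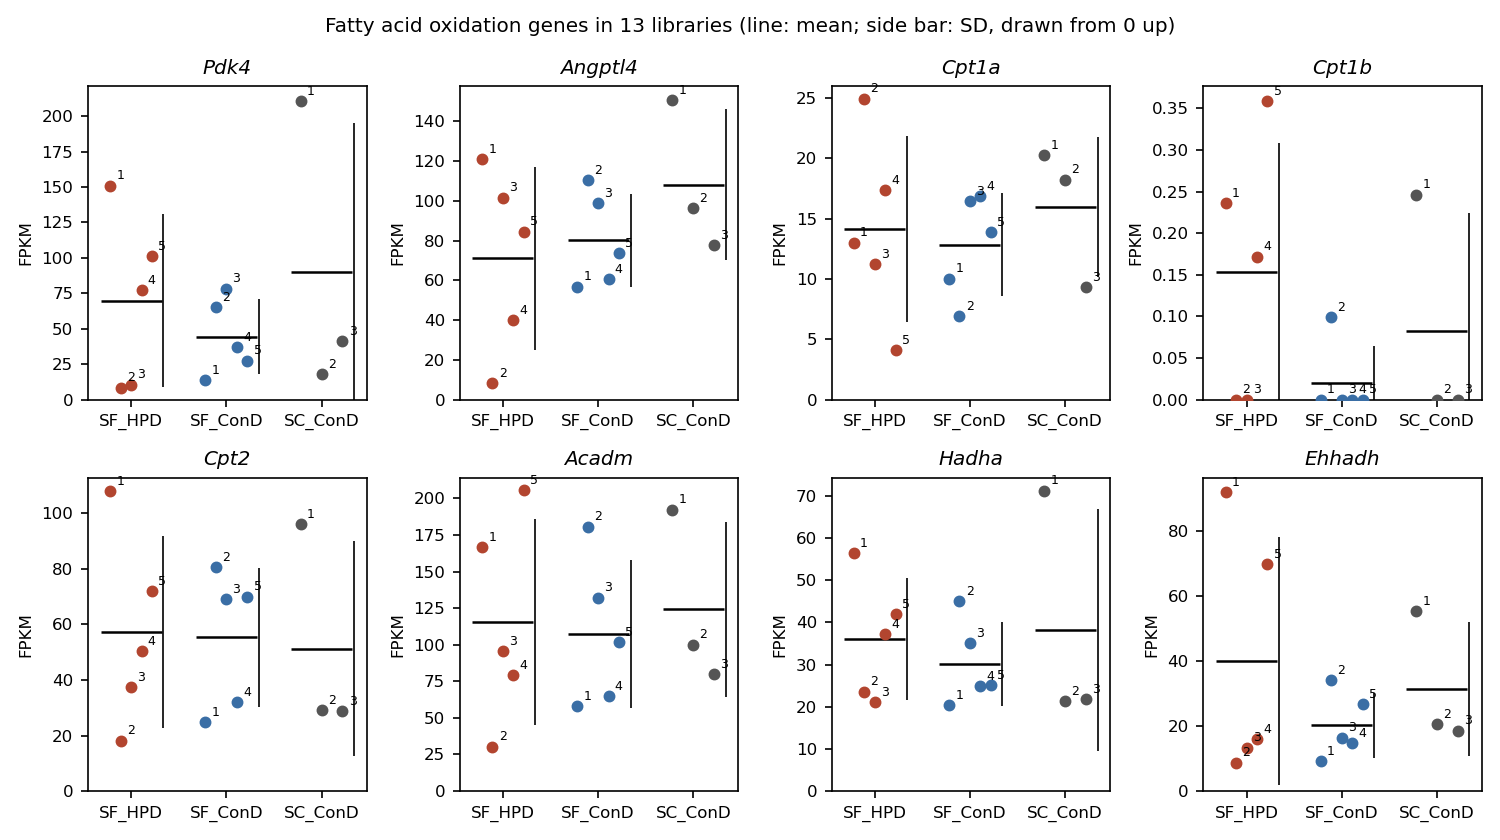
FPKM of each of the 8 genes (linear axes from 0) in SF_HPD (5 libraries), SF_ConD (5) and SC_ConD (3), with a point per library labelled by its replicate number, the mean as a line and the SD as a side bar cut at 0. The groups overlap for each gene, and SC_ConD 1 is the highest point of its group in each panel.

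Pdk4 (ENSMUSG00000019577, chr6:5483351-5496309 on GRCm38, minus strand) had 151, 8.39, 10.5, 77.3 and 101.4 FPKM in SF_HPD 1 to 5, 13.9, 65.1, 78.3, 37.1 and 27.5 FPKM in SF_ConD 1 to 5, and 211, 18.1 and 41.2 FPKM in SC_ConD 1 to 3. Each group held both high and low libraries, and the groups overlapped. Its means were 69.7 ± 61.1 FPKM in SF_HPD (n = 5), 44.4 ± 26.7 FPKM in SF_ConD (n = 5) and 90.0 ± 105 FPKM in SC_ConD (SD, n = 3). The highest library exceeded the lowest 25.1-fold. The SD within groups on the log2(FPKM + 1) scale was 1.55, at the 94.4th percentile of all genes kept, and the groups accounted for 2.18% of the variance of Pdk4, against a median of 9.77% over all genes kept. Set against Pdk2, a related kinase of the same complex that is less bound to fasting, within each library, Pdk4 stood at 2.20, 1.93, 0.400, 0.943 and 3.70 times the FPKM of Pdk2 in SF_HPD 1 to 5, 0.958, 1.63, 1.09, 1.47 and 0.893 times in SF_ConD 1 to 5, and 2.66, 1.14 and 1.75 times in SC_ConD 1 to 3. Such a ratio does not depend on the scaling of a library. It varied 9.25-fold among the libraries of SF_HPD and 1.83-fold among those of SF_ConD.

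Angptl4 (ENSMUSG00000002289, chr17:33773750-33781575, minus strand) had 121, 8.40, 102, 40.1 and 84.5 FPKM in SF_HPD 1 to 5, 56.9, 110.3, 98.8, 60.8 and 73.8 FPKM in SF_ConD 1 to 5, and 151, 96.2 and 77.5 FPKM in SC_ConD 1 to 3. The low value of SF_HPD 2, the library poor in adipocyte transcripts, stood apart, and the other libraries ranged from 40.1 to 151 FPKM. The means were 71.1 ± 46.1 FPKM in SF_HPD (n = 5), 80.1 ± 23.6 FPKM in SF_ConD (n = 5) and 108 ± 38.0 FPKM in SC_ConD (SD, n = 3). Groups accounted for 15.9% of its variance on the log2(FPKM + 1) scale, above the median of 9.77% over all genes kept, and for 4.56% on TPM, levels rescaled to the same total in each library, below the median of 7.12% there. This was the largest share among the 7 genes kept on both scales. Lpl, the lipase that the protein inhibits, was 2.79 FPKM in SF_HPD 2 and 94.98 to 683 FPKM in the other 12 libraries.

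Of the carnitine palmitoyltransferases, Cpt1a (ENSMUSG00000024900, chr19:3323301-3385732, plus strand), the form of liver and many other tissues on the outer mitochondrial membrane, had 13.01, 25.0, 11.2, 17.3 and 4.11 FPKM in SF_HPD 1 to 5, 10.03, 6.93, 16.5, 16.9 and 13.9 FPKM in SF_ConD 1 to 5, and 20.3, 18.2 and 9.33 FPKM in SC_ConD 1 to 3. On FPKM, its highest level lay in SF_HPD 2, where 5 of the other 6 kept genes were at their lowest of all libraries. Its lowest lay in SF_HPD 5, where Acadm was at its highest FPKM. On TPM, Cpt1a had 18.9 TPM in SF_HPD 2 and was highest in SC_ConD 1, at 55.8 TPM, so the place of its highest level depends on the scaling. The means were 14.1 ± 7.71 FPKM in SF_HPD (n = 5), 12.8 ± 4.29 FPKM in SF_ConD (n = 5) and 15.9 ± 5.82 FPKM in SC_ConD (SD, n = 3). The table gives Cpt1a a length of 4300 bases, against 7642 exon bases in the annotation of GRCm38 used here, so its level per length depends on the gene model.

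Cpt2 (ENSMUSG00000028607, chr4:107903981-107923610, minus strand), its partner on the inner membrane, had 108, 18.1, 37.4, 50.4 and 71.9 FPKM in SF_HPD 1 to 5, 24.7, 80.6, 69.2, 31.9 and 70.0 FPKM in SF_ConD 1 to 5, and 96.1, 29.0 and 28.7 FPKM in SC_ConD 1 to 3. Means were close, at 57.2 ± 34.6 FPKM in SF_HPD (n = 5), 55.3 ± 25.2 FPKM in SF_ConD (n = 5) and 51.3 ± 38.8 FPKM in SC_ConD (SD, n = 3). Groups accounted for 1.04% of the variance of Cpt2 on FPKM and 1.98% on TPM. Cpt1a over Cpt2 within a library was 0.120, 1.38, 0.2998, 0.344 and 0.0571 in SF_HPD 1 to 5, 0.406, 0.0860, 0.238, 0.530 and 0.198 in SF_ConD 1 to 5, and 0.211, 0.628 and 0.325 in SC_ConD 1 to 3. Cpt1a thus exceeded Cpt2 in SF_HPD 2 and was below it in the other 12 libraries, and the groups overlapped.

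Cpt1b (ENSMUSG00000078937, chr15:89416405-89425863, minus strand), the form of muscle and brown fat, had 0.236, 0, 0, 0.172 and 0.359 FPKM in SF_HPD 1 to 5, 0, 0.0993, 0, 0 and 0 FPKM in SF_ConD 1 to 5, and 0.246, 0 and 0 FPKM in SC_ConD 1 to 3. These came to 58 reads in all, at most 17 in a library, and 8 of 13 libraries were at 0, where 3 reads would have been 0.0440 to 0.103 FPKM. Such limits cover counting error only. Cpt1b was also near 0 in SF_HPD 4, which had the most muscle transcripts, and in SF_HPD 5, which had the most Ucp1, the uncoupling protein of brown and beige fat, at 124 FPKM. Its level is uncertain. In the annotation of GRCm38 used here, 2744 of its 3372 exon bases (81.4%) are shared on the same strand with Gm44502, whose exons also overlap Chkb, and the reads of overlapping genes cannot be told apart. Gm44502 was listed at 0 in all 13 libraries, and Chkb, the choline kinase gene, at 0 to 0.393 FPKM. No member comparison was made for Cpt1b.

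In the mitochondrial spiral, Acadm (ENSMUSG00000062908, chr3:153922357-153944632, minus strand), the medium-chain acyl-CoA dehydrogenase, had 167, 30.3, 95.4, 79.3 and 206 FPKM in SF_HPD 1 to 5, 57.8, 181, 132, 64.8 and 102 FPKM in SF_ConD 1 to 5, and 192, 100.2 and 79.9 FPKM in SC_ConD 1 to 3. SF_HPD 5 and SF_ConD 2, the highest of their groups, were also the libraries with the most Ucp1 of theirs, at 124 and 35.3 FPKM. SC_ConD 1, the highest of its group, had 23.4 FPKM of Ucp1 against 3.03 and 0 in SC_ConD 2 and 3. By contrast, SF_HPD 1, the next highest of its group at 167 FPKM of Acadm, had only 2.605 FPKM of Ucp1. SF_HPD 4 had a similar Ucp1 level with 79.3 FPKM of Acadm. The part of beige or brown adipocytes in these levels was not tested. Means of Acadm were 115 ± 70.2 FPKM in SF_HPD (n = 5), 107 ± 50.7 FPKM in SF_ConD (n = 5) and 124 ± 59.9 FPKM in SC_ConD (SD, n = 3).

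Hadha (ENSMUSG00000025745, chr5:30118304-30155162, minus strand), the alpha subunit of the mitochondrial trifunctional protein, had 56.5, 23.6, 21.0, 37.2 and 42.0 FPKM in SF_HPD 1 to 5, 20.5, 45.0, 35.0, 24.8 and 25.0 FPKM in SF_ConD 1 to 5, and 71.3, 21.3 and 21.7 FPKM in SC_ConD 1 to 3. Its SD within groups was 0.63 on the log2(FPKM + 1) scale, the smallest of the 7 and beside a median of 0.66 over all genes kept. On TPM it was 1.25, beside a median of 0.94, and Cpt1a had the smallest SD of the 7 at 1.11. The means were 36.1 ± 14.4 FPKM in SF_HPD (n = 5), 30.1 ± 9.92 FPKM in SF_ConD (n = 5) and 38.1 ± 28.7 FPKM in SC_ConD (SD, n = 3). Set against Hadhb, which encodes the beta subunit of the same complex, Hadha was 0.881, 0.973, 0.666, 0.995 and 0.440 times as high in SF_HPD 1 to 5, 0.550, 0.517, 0.656, 0.624 and 0.468 times in SF_ConD 1 to 5, and 0.638, 0.735 and 0.715 times in SC_ConD 1 to 3. SF_HPD 1, 2 and 4 lay above the other 10 libraries, but SF_HPD 5 was the lowest of the 13, so the groups overlapped.

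Ehhadh (ENSMUSG00000022853, chr16:21761287-21787807, minus strand), the peroxisomal enzyme, had 92.1, 8.80, 13.4, 16.0 and 70.0 FPKM in SF_HPD 1 to 5, 9.15, 34.1, 16.5, 14.7 and 26.7 FPKM in SF_ConD 1 to 5, and 55.4, 20.6 and 18.6 FPKM in SC_ConD 1 to 3. SF_HPD 1 and 5 were the highest of all, and the other 3 libraries of SF_HPD lay within the range of SF_ConD or below it. The means were 40.1 ± 38.3 FPKM in SF_HPD (n = 5), 20.2 ± 10.01 FPKM in SF_ConD (n = 5) and 31.5 ± 20.6 FPKM in SC_ConD (SD, n = 3). Ehhadh over Acadm was 0.552, 0.290, 0.141, 0.202 and 0.3405 in SF_HPD 1 to 5, 0.158, 0.189, 0.125, 0.227 and 0.262 in SF_ConD 1 to 5, and 0.288, 0.206 and 0.233 in SC_ConD 1 to 3. The peroxisomal enzyme thus varied against the mitochondrial one 3.93-fold within SF_HPD, 2.10-fold within SF_ConD and 1.40-fold within SC_ConD.

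**Figure D2:**
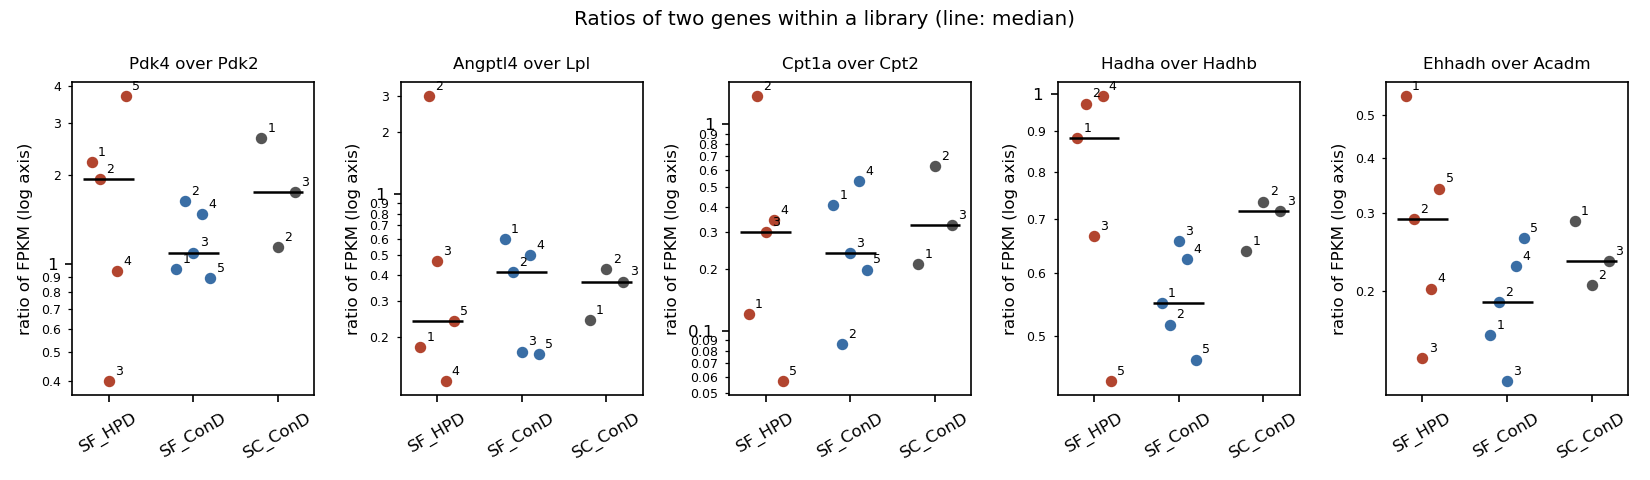
Ratios of the FPKM of 2 genes within a library (log axes) in SF_HPD, SF_ConD and SC_ConD, with a point per library labelled by its replicate number and the group median as a line. SF_HPD 2 stands apart in Angptl4 over Lpl (3.01) and Cpt1a over Cpt2 (1.38).

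The comparison of SF_HPD with SF_ConD asks what the high-protein diet changed under fragmented sleep. None of the 7 genes kept passed the test, and their groups overlapped. On the log2 scale the largest difference was in Angptl4, with 71.1 FPKM in SF_HPD and 80.1 FPKM in SF_ConD, a log2 fold change of FPKM + 1 of -0.57 (SE 0.61, 95% interval -1.89 to 0.76). Ehhadh averaged 40.1 FPKM in SF_HPD and 20.2 FPKM in SF_ConD, with a log2 fold change of 0.51 (SE 0.63, interval -0.86 to 1.88). Hadha had 0.22 (interval -0.66 to 1.09), Pdk4 0.13 (-1.78 to 2.04), Cpt1a 0.0063 (-0.89 to 0.91), Cpt2 -0.040 (-1.20 to 1.12) and Acadm -0.038 (-1.21 to 1.13). The adjusted p was 1.0 for each of the 7 (limma, Benjamini-Hochberg over 14421 genes). Among all genes kept, 0% were called and 273 had an unadjusted p under 0.05, none of them a member. Limma-voom on the recovered reads also made 0 calls, with 205 genes at an unadjusted p under 0.05. The share of genes kept whose groups did not overlap was 0.229% higher and 0.229% lower in SF_HPD. The intervals of Pdk4, Cpt2 and Acadm reach past 1 log2 unit in both directions, so a p that missed the threshold does not show equal levels. Without SF_HPD 2, the log2 fold change of Angptl4 was 0.055, and without SF_HPD 5, 1 gene was called, which was no member. Leaving out 1 library also turned the sign of Pdk4 (-0.33 without SF_HPD 1), Cpt1a (-0.23 without SF_HPD 2), Cpt2 (0.30) and Acadm (0.37, both without SF_HPD 2).

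The comparison of SF_ConD with SC_ConD asks what fragmented sleep changed on chow. No member passed (adjusted p = 1.0 for each of the 7, limma), and the groups overlapped for each. The means were lower in SF_ConD than in SC_ConD for 6 genes and higher for Cpt2, at 55.3 FPKM in SF_ConD and 51.3 FPKM in SC_ConD. The log2 fold change was -0.57 for Ehhadh (SE 0.73, interval -2.15 to 1.004), -0.53 for Pdk4 (SE 1.02, -2.73 to 1.68) and -0.42 for Angptl4 (SE 0.71, -1.95 to 1.11). It was -0.29 for Cpt1a, -0.23 for Acadm, -0.15 for Hadha and 0.20 for Cpt2. The median over the 7 genes was -0.29, beside -0.029 over all genes kept. Rescaled to TPM, the median was -0.064 for the 7 genes and 0.15 for all, and Acadm and Hadha turned to 0.0099 and 0.083. Of all genes kept, 0% were called by limma and 828 had an unadjusted p under 0.05, against 0 calls and 709 genes by limma-voom. Genes without overlap made up 1.68% higher and 1.92% lower in SF_ConD. SC_ConD 1 was the highest of its group in 7 of the 7 genes, and without it the log2 fold change of Pdk4 was 0.44, of Hadha 0.41 and of Acadm 0.13. Without it, 194 of the 14421 genes kept were called, 5 higher and 189 lower in SF_ConD, with no member among them. The control group then held only SC_ConD 2 and 3, both high in hepatocyte transcripts, and the part of these in the calls was not tested.

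The comparison of SF_HPD with SC_ConD sets both interventions against neither. Angptl4 averaged 71.1 ± 46.1 FPKM in SF_HPD (n = 5) and 108 ± 38.0 FPKM in SC_ConD (SD, n = 3), with a log2 fold change of -0.99 (SE 0.71, interval -2.52 to 0.54), the largest of any member in the 3 comparisons. It did not pass (unadjusted p = 0.186, adjusted p = 1.0, limma). Pdk4 had -0.40 (interval -2.60 to 1.80), Cpt1a -0.28 (-1.32 to 0.76), Acadm -0.27 (-1.62 to 1.08), Cpt2 0.16 (-1.18 to 1.51), Hadha 0.068 (-0.94 to 1.08) and Ehhadh -0.065 (-1.64 to 1.51). None passed, with an adjusted p of 1.0 for each, and the groups overlapped. Of all genes kept, 0% were called by limma and 531 had an unadjusted p under 0.05, against 0 calls and 500 genes by limma-voom. Genes without overlap made up 0.791% higher and 0.853% lower in SF_HPD. Pdk4 was lower in SF_HPD in each of the 3 same-numbered pairs, at 151 FPKM in SF_HPD 1 against 211 in SC_ConD 1, 8.39 in SF_HPD 2 against 18.1 in SC_ConD 2 and 10.5 in SF_HPD 3 against 41.2 in SC_ConD 3. The labels name no source of pairing, and SF_HPD 4 and 5, with no same-numbered library in SC_ConD, had 77.3 and 101.4 FPKM. With the replicate number as a block, the log2 fold change of Pdk4 was -0.69, and it did not pass. Without SF_HPD 2 the log2 fold change of Angptl4 was -0.37. Without SC_ConD 1, Pdk4 had 0.57, Ehhadh 0.42 and Acadm 0.094, and without SF_HPD 2 Pdk4 had 0.14, Ehhadh 0.31 and Acadm 0.14. Pdk4 also turned positive without SF_HPD 3, Ehhadh without SF_HPD 3 or 4, and Cpt1a without SF_HPD 5. Cpt2 and Hadha turned negative without SF_HPD 1, SC_ConD 2 or SC_ConD 3, and Hadha also without SF_HPD 5. Without SC_ConD 1, 196 of the 14421 genes kept were called, 3 higher and 193 lower in SF_HPD, with no member among them. In that fit SC_ConD held only SC_ConD 2 and 3, both high in hepatocyte transcripts. Without SF_HPD 5, 1 gene was called. The 3 comparisons share groups, so their values are not independent.

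**Figure D3:**
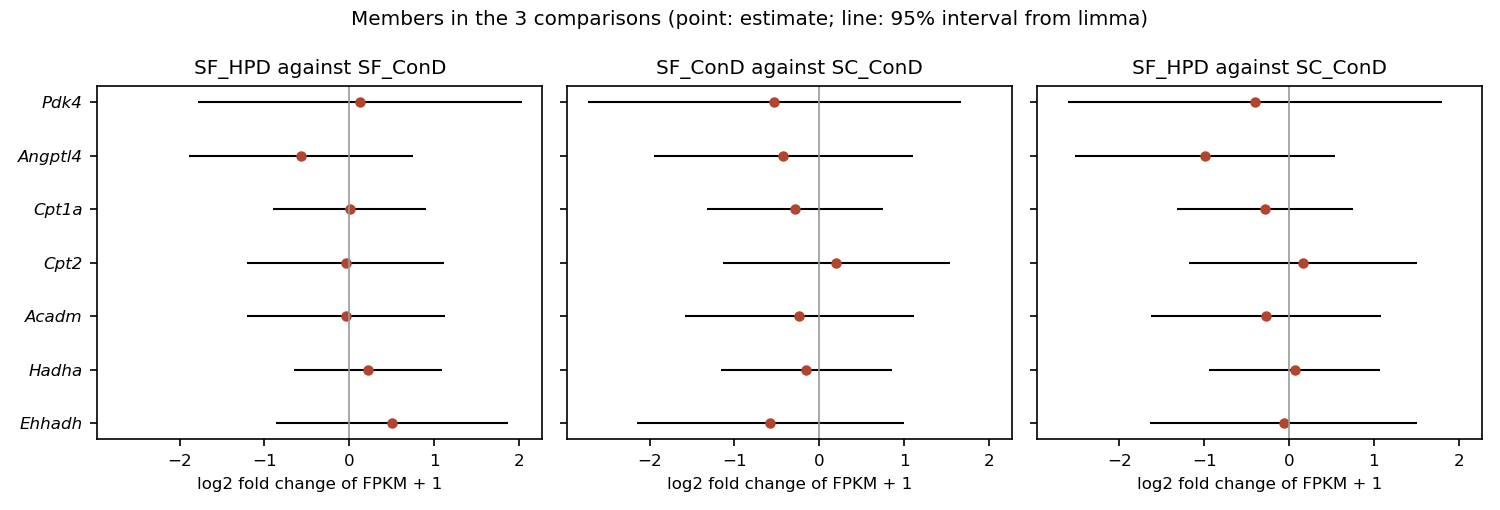
Log2 fold change of FPKM + 1 (points) with 95% intervals from limma (lines) for the 7 genes kept, in SF_HPD against SF_ConD, SF_ConD against SC_ConD and SF_HPD against SC_ConD. Each interval spans 0, and the widest belong to Pdk4.

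Marker lists of other cell types, none with a gene called, are given beside these values by the sign of the log2 fold change. The 12 hepatocyte markers were lower in SF_HPD than in SC_ConD in 12 of 12 and lower in SF_ConD than in SC_ConD in 12 of 12, with none called, and their summed level was 108 to 919.8 FPKM in SF_HPD, 520.0 to 2718 FPKM in SF_ConD and 395 to 15282 FPKM in SC_ConD. SC_ConD 1, where the 7 genes were highest in their group, had the 395 FPKM, and each of the 12 markers was above 0 in each library of SC_ConD. With SC_ConD 2 and 3 left out, Angptl4 had a log2 fold change of -1.52 in SF_HPD against SC_ConD and no member passed. The 11 B cell and lymph node markers were higher in SF_ConD than in SC_ConD in 11 of 11, with none called and summed levels of 8.74 to 3121 FPKM in SF_ConD and 11.1 to 49.7 FPKM in SC_ConD. Up to 6 of these 11 were at 0 in a library of SC_ConD, among them Cd79a in SC_ConD 3. Of the 10 white adipocyte markers, 9 had a negative log2 fold change in SF_HPD against SF_ConD, although the FPKM means of Plin1, Fabp4, Pnpla2 and Cd36 among these 9 were higher in SF_HPD. In SF_HPD 2 Plin1 had 1.47 FPKM and Cd36 6.73 FPKM. The summed levels of the 10 were 1429 to 35473 FPKM in SF_HPD, 15058 to 44677 FPKM in SF_ConD and 15398 to 58742.5 FPKM in SC_ConD. Against SC_ConD, 10 of the 10 had a negative log2 fold change both in SF_ConD and in SF_HPD, with none called. On TPM, 3 of them were positive in SF_ConD against SC_ConD and 0 in SF_HPD against SC_ConD. The 8 skeletal muscle markers tested were higher in SF_HPD than in SF_ConD in 8 of 8 and lower in SF_ConD than in SC_ConD in 8 of 8. Summed levels of the muscle list were 27.0 to 20038 FPKM in SF_HPD, 5.71 to 117 FPKM in SF_ConD and 24.8 to 3524 FPKM in SC_ConD. The 6 stromal progenitor markers were higher in SF_HPD than in SF_ConD in 5 of 6 and lower in SF_ConD than in SC_ConD in 6 of 6, with summed levels of 113 to 266 FPKM in SF_HPD, 41.0 to 97.2 FPKM in SF_ConD and 95.4 to 296 FPKM in SC_ConD. Among them Pi16 had the smallest p in SF_HPD against SF_ConD (log2 fold change 1.31, SE 0.44, unadjusted p = 0.00996, adjusted p = 1.0, limma). In SF_HPD against SF_ConD, macrophage markers were higher in 6 of 7, endothelial markers lower in 4 of 5 and mammary epithelium markers lower in 5 of 6. Summed levels of the mammary epithelium list were 2.48 to 6509 FPKM in SF_HPD and 270 to 1133 FPKM in SF_ConD. The 6509 FPKM were in SF_HPD 2, where Krt18 had 5015 FPKM, Krt8 1005 FPKM and Krt5 438 FPKM. The rest of the list was not high there. Epcam had 47.2 FPKM against 178 FPKM in SF_ConD 3, Krt14 4.34 FPKM against 99.96 FPKM in SC_ConD 3, and Csn3 and Wap were at 0. The part of cell content in the values of the 7 genes was not tested.

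Across libraries, 6 of the 7 genes went up and down together and Cpt1a did not, on the FPKM scale. Over the 13 libraries Pearson's r on log2(FPKM + 1) lay between 0.42 (Angptl4 and Hadha) and 0.90 (Pdk4 and Hadha) among Pdk4, Angptl4, Cpt2, Acadm, Hadha and Ehhadh, and between -0.49 (with Acadm) and -0.083 (with Hadha) for Cpt1a with these 6. On log2(TPM + 1) the same correlations of Cpt1a were 0.36 to 0.65, so their sign depends on the scaling of the libraries. The libraries share depth and tissue content in these correlations, which are a description. SF_HPD 1 was the highest of its group in 5 of the 7 genes, SF_ConD 2 in 5 and SC_ConD 1 in 7. SF_HPD 2 was the lowest of its group in 5, SF_ConD 1 in 6 and SC_ConD 3 in 5.

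**Figure D4:**
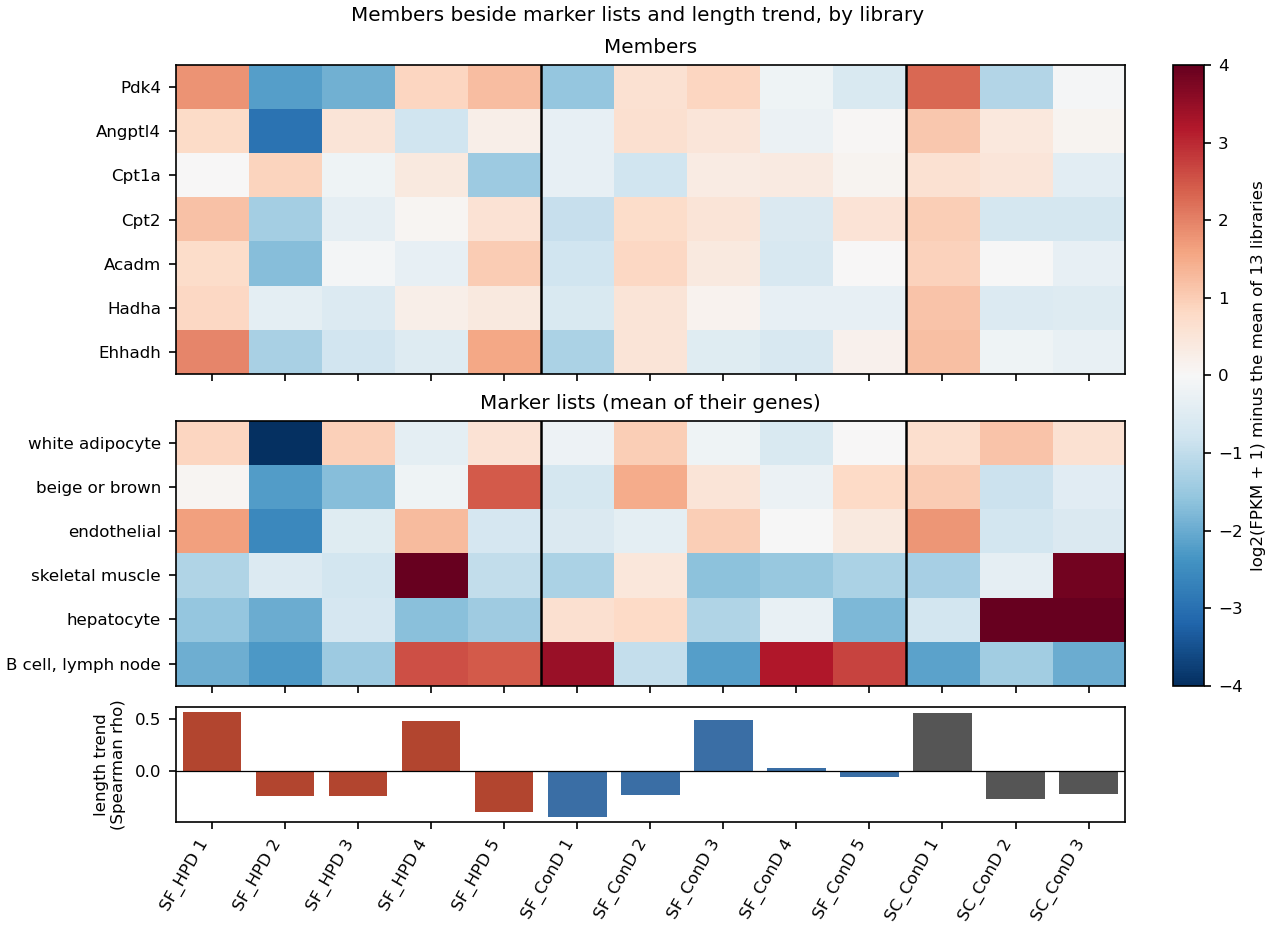
The 7 genes kept (top) and the means of 6 marker lists (middle) as log2(FPKM + 1) minus the mean of the 13 libraries (colour), above the Spearman rho of each library with gene length (bars), from SF_HPD 1 to SC_ConD 3. SF_HPD 2 is low in both Angptl4 and the white adipocyte list, while Cpt1a is at its highest FPKM there, though not at its highest TPM.

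The libraries that leaned toward long genes also stood out in some of the 7 genes. Pdk4 had 77.3 to 211 FPKM in these 4 libraries and 8.39 to 101.4 FPKM in the other 9. Hadha had 35.0 to 71.3 FPKM in the 4 and 20.5 to 45.0 FPKM in the 9, and Cpt2 50.4 to 108 FPKM and 18.1 to 80.6 FPKM. Within a library, Pdk4 over Acadm was 0.592 to 1.10 in the 4 and 0.111 to 0.572 in the 9, so the 2 sets did not overlap. The other ratios examined did overlap, among them Cpt2 over Acadm at 0.500 to 0.648 in the 4 and 0.290 to 0.689 in the 9. The share of all genes or ratios that part these sets was not counted. The limit of 0.3 on rho was set after the values were seen, and the 4 libraries came from all 3 groups. The part of transcript length or RNA quality in these levels was not tested. With the 4 left out, no member passed in any comparison, while 162 genes were called in SF_ConD against SC_ConD and 172 in SF_HPD against SC_ConD. SC_ConD then held only SC_ConD 2 and 3, both high in hepatocyte transcripts.

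**Figure D5:**
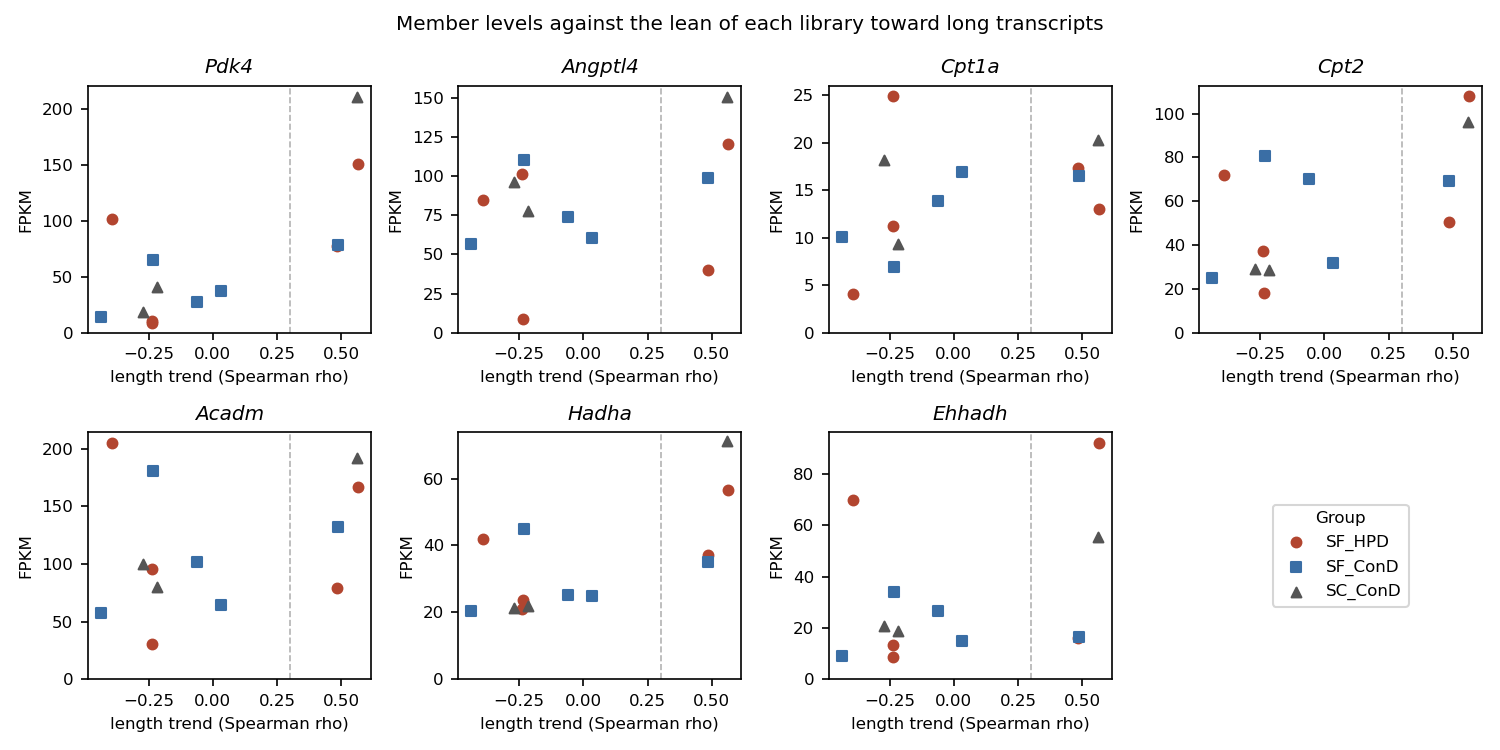
FPKM of the 7 genes kept (linear axes from 0) against the Spearman rho of the library with gene length, with a marker for each library by group (SF_HPD, SF_ConD, SC_ConD) and a dashed line at the limit of 0.3. Pdk4 lies between 77.3 and 211 FPKM to the right of the line and between 8.39 and 101.4 FPKM to its left.

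The wider pathway was described by 71 other genes in 7 lists, and none of those tested passed in any comparison (limma, 0% called over all genes kept). Higher and lower are counted by the sign of the log2 fold change. The carnitine shuttle and acyl-CoA activation list (7 of 8 tested) had 3 higher and 4 lower means in SF_HPD than in SF_ConD, 3 higher and 4 lower in SF_ConD than in SC_ConD, and 3 higher and 4 lower in SF_HPD than in SC_ConD, where 8 of 8 were higher on TPM. On TPM this list had a median log2 fold change of 0.26 there, beside 0.25 over all genes. Its members with the smallest p were Slc22a5, the carnitine importer, in SF_HPD against SF_ConD (log2 fold change 0.34, SE 0.29), Acsl4, an acyl-CoA synthetase, in SF_ConD against SC_ConD (-0.63, SE 0.38) and Slc22a5 in SF_HPD against SC_ConD (0.30, SE 0.33). The mitochondrial list of 13 had 8 higher and 5 lower in SF_HPD than in SF_ConD, 2 higher and 11 lower in SF_ConD than in SC_ConD, and 1 higher and 12 lower in SF_HPD than in SC_ConD. On TPM the counts of higher means were 8, 5 and 8 of 13, so the direction of this list against SC_ConD depends on the scaling. Etfa, which passes electrons from the dehydrogenases, had the smallest p in the first of these comparisons (0.27, SE 0.45) and Eci2, an enoyl-CoA isomerase, in the other two (-0.42 and -0.45, SE 0.46 each).

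The peroxisomal list of 10 had 7 higher and 3 lower means in SF_HPD than in SF_ConD, 2 higher and 8 lower in SF_ConD than in SC_ConD, and 4 higher and 6 lower in SF_HPD than in SC_ConD. Its member with the smallest p was Crot, which links peroxisomal products to carnitine. Crot had 7.56, 8.80, 5.37, 6.96 and 6.68 FPKM in SF_ConD 1 to 5 and 9.40, 14.5 and 12.3 FPKM in SC_ConD 1 to 3, a log2 fold change of -0.69 (SE 0.27). The 2 groups did not overlap, as for 1.92% of all genes kept that were lower in SF_ConD. The 14.5 and 12.3 FPKM were in SC_ConD 2 and 3, the libraries high in hepatocyte transcripts. Crot did not pass (unadjusted p = 0.0225, adjusted p = 0.845, limma). Acaa1b, a thiolase with a near-identical copy whose reads may be split, had 1.19 (SE 0.60) in SF_HPD against SF_ConD.

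Of 12 other PPAR and fasting targets, 11 were tested, with 7 higher and 4 lower means in SF_HPD than in SF_ConD, 3 higher and 8 lower in SF_ConD than in SC_ConD, and 3 higher and 8 lower in SF_HPD than in SC_ConD. Cyp4a14, a fatty acid hydroxylase best known from liver, had 0.381, 0.0258, 0.181, 0.133 and 0.301 FPKM in SF_ConD 1 to 5 and 1.004, 26.9 and 1.72 FPKM in SC_ConD 1 to 3, with a log2 fold change of -2.16 (SE 0.68, unadjusted p = 0.00698, adjusted p = 0.716, limma). The high value was in SC_ConD 2, the library with the most hepatocyte transcripts.

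The pyruvate dehydrogenase list of 9, the complex with its kinases and phosphatases other than Pdk4, had 3 higher and 6 lower means in SF_HPD than in SF_ConD, 7 higher and 2 lower in SF_ConD than in SC_ConD, and 7 higher and 2 lower in SF_HPD than in SC_ConD. Pdk1, another of these kinases, had 12.4, 15.1, 8.69, 12.1 and 14.5 FPKM in SF_ConD 1 to 5 and 14.6, 3.76 and 5.95 FPKM in SC_ConD 1 to 3, with a log2 fold change of 0.73 (SE 0.37), and Pdp1, a phosphatase that acts against them, had 0.52 (SE 0.32) in SF_HPD against SF_ConD. Around lipoprotein lipase, 6 of 7 genes were tested, with 2 higher and 4 lower means in SF_HPD than in SF_ConD, 0 higher and 6 lower in SF_ConD than in SC_ConD, and 0 higher and 6 lower in SF_HPD than in SC_ConD. On TPM, 2 of 7 were higher in each of the 3 comparisons. Gpihbp1, which carries the lipase to the capillary wall, had 59.5, 9.001, 101.4, 27.8 and 96.5 FPKM in SF_HPD 1 to 5 and 79.4, 179.6 and 147 FPKM in SC_ConD 1 to 3, with a log2 fold change of -1.54 (SE 0.70). None of these passed.

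Among 12 regulators, 11 were tested, with 7 higher and 4 lower means in SF_HPD than in SF_ConD, 4 higher and 7 lower in SF_ConD than in SC_ConD, and 4 higher and 7 lower in SF_HPD than in SC_ConD, where 8 of 12 were higher on TPM. The median log2 fold change of the regulators on TPM was 0.11 there, beside 0.25 over all genes. Ppara, the PPAR receptor that drives oxidation in liver, was low, at 7.97, 2.35, 0.664, 2.70 and 2.84 FPKM in SF_HPD 1 to 5, 0.344, 2.83, 2.44, 1.39 and 1.22 FPKM in SF_ConD 1 to 5, and 9.95, 6.79 and 1.49 FPKM in SC_ConD 1 to 3. Its log2 fold change in SF_ConD against SC_ConD was -1.27 (SE 0.57). Pparg, the adipocyte receptor of the family, had 68.1, 63.6, 81.8, 34.9 and 71.3 FPKM in SF_HPD 1 to 5 and 83.2, 136 and 168 FPKM in SC_ConD 1 to 3, with a log2 fold change of -0.996 (SE 0.45). These groups did not overlap, as for 0.853% of all genes kept that were lower in SF_HPD. Esrra, an orphan receptor that drives mitochondrial genes, went the other way, at 34.6, 53.4, 32.9, 22.5 and 39.5 FPKM in SF_HPD 1 to 5 and 28.1, 14.0 and 11.9 FPKM in SC_ConD 1 to 3, with a log2 fold change of 1.03 (SE 0.37, unadjusted p = 0.0155, adjusted p = 0.947, limma). None of the 3 passed.

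The genes most like each of the 7 over the 13 libraries were named by Pearson's r on log2(TPM + 1) among 11447 genes with a mean of at least 2 TPM. Acadm was closest to Slc25a20, the carnitine carrier between Cpt1 and Cpt2 (r = 0.990), followed by Fbxo21 and Akt2. Ehhadh was closest to Frg2f1 (r = 0.947), then Slc25a20 (r = 0.939) and Oplah. Pdk4 was closest to Frg2f1 (r = 0.952), Nampt and Lurap1, and Hadha to Lurap1 (r = 0.983), Acsf3 and Mavs. Cpt2 was closest to Ddhd2 (r = 0.986), Hspa9 and Ddo, Angptl4 to Csad (r = 0.990), Adrb3, the beta-3 adrenergic receptor of adipocytes, and Car4, and Cpt1a to Plxnb2 (r = 0.989), Chd3 and Frmd6. The median r of each of the 7 with all candidates was already 0.56 to 0.73.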

How the data were processed

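Per the labels' protocols, total RNA of inguinal white fat was sequenced from individual mice. The deposited table gives FPKM values made by the authors, beside each gene's symbol, position and length. CASAVA, HISAT2 2.0.5, featureCounts 1.5.0-p3 and mm8 appear, with no role, in the list per the submitters' processing notes. Of the 54532 identifiers, 54409 were in the GRCm38 annotation used here (GENCODE) and 53499 had the same start and end, so coordinates are on GRCm38. The sources used here give no strand setting. FPKM steps gave whole reads for 100% of values within 0.05, and the divisor they imply was 0.479 to 1.23 times the library's recovered total.

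Group means of log2(FPKM + 1) over the 13 libraries were fitted with limma 3.58.1 under R 4.3.3 (trend and robust eBayes, two-sided, Benjamini-Hochberg over 14421 genes with at least 1 FPKM in at least 3 libraries, threshold 0.05). On this scale the change of a low gene is understated. Steps were tested on simulated data. Python 3.11.15, pandas 2.3.3, scipy 1.17.1 and matplotlib 3.10.9 did the rest. Alternatives were a pseudocount of 0.1, other filters, TPM, median-of-ratios and quantile scaling, other fits, limma-voom on recovered reads and leaving out libraries.

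The members and lists were chosen with earlier results of these data known. By the naming rule, all members were named, up to 4 genes of each list by smallest p in a comparison, and the 3 genes most like each member. For each list the text names those of smallest p, and those given by library, and the partner genes of the ratios, were picked after their values were seen. Some genes that the naming rule covers are not reported here. No library pair was as alike as sampling noise allows (lowest chi-square per degree of freedom 71.0). Same-numbered libraries of SF_HPD and SC_ConD deviated together across genes (r = 0.711, 0.333 and 0.191). Each is over 0.1, the limit used, and the replicate number was run as a block in an alternative only. The main fit held no pairing. Libraries of these groups with different numbers reached 0.528, and SF_HPD 3 was closer to SC_ConD 2 (0.233). SC_ConD 2 was closer to SF_HPD 5 (0.381), and SC_ConD 3 to SF_HPD 2 (0.304) and 5 (0.246), than to the library of the same number. The labels name no source of pairing. Between same-numbered libraries of SF_HPD and SF_ConD r was -0.670 to 0.405, and between those of SF_ConD and SC_ConD -0.558 to 0.190. The replicate block joined these libraries too.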

Additional observations from a re-analysis of the deposited data

Results flagged for a closer look

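SF_HPD 2 lay far from the other 4 libraries of its group in 2 ratios. Cpt1a over Cpt2 was 1.38 in SF_HPD 2, and the nearest library of the group had 0.344. Angptl4 over Lpl was 3.01 in SF_HPD 2, and the nearest had 0.467. In this library Lpl was at 2.79 FPKM, Adipoq at 26.1 FPKM and the epithelial keratin Krt18 at 5015 FPKM. Of 28 groups of values examined in this way, 2 stood out, and chance would give about 5%. The part of tissue content in these ratios was not tested.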

How the results depend on the processing

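No member was called under any alternative run, at most 23 in a comparison, and the lowest adjusted p of a member was 0.642. Of 455 log2 fold changes under these alternatives, 382 kept their sign and 73 turned. Angptl4 in SF_HPD against SC_ConD, and Cpt1a and Ehhadh in SF_ConD against SC_ConD, kept theirs in every alternative. With the replicate block, members called were 0 and genes called 0 in each comparison, and no call changed. Scaling moved the median of all genes: it was 0.059, 0.15 and 0.25 on TPM and -0.14, 0.27 and 0.16 with limma-voom in SF_HPD against SF_ConD, SF_ConD against SC_ConD and SF_HPD against SC_ConD.

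In SF_HPD against SF_ConD, Cpt1a turned to -0.0082 with a pseudocount of 0.1, -0.030 with median-of-ratios scaling, -0.030 with quantile normalization and -0.12 with limma-voom, and with quantile normalization Cpt2 was 0.050 and Acadm 0.048. In SF_ConD against SC_ConD, Acadm and Hadha were 0.0099 and 0.083 on TPM, and 0.045 and 0.12 with limma-voom. In SF_HPD against SC_ConD, Ehhadh was 0.19 on TPM, 0.045 with quantile normalization and 0.069 with limma-voom.

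Leaving out 1 library at a time, log2 fold changes in SF_HPD against SF_ConD ranged from -0.33 to 0.67 (Pdk4), -0.87 to 0.055 (Angptl4), -0.23 to 0.35 (Cpt1a), -0.32 to 0.30 (Cpt2) and -0.31 to 0.37 (Acadm). In SF_ConD against SC_ConD they ranged from -1.30 to 0.44 (Pdk4), -0.083 to 0.77 (Cpt2), -0.50 to 0.13 (Acadm) and -0.44 to 0.41 (Hadha). In SF_HPD against SC_ConD they ranged from -1.17 to 0.57 (Pdk4), -0.60 to 0.064 (Cpt1a), -0.12 to 0.73 (Cpt2), -0.54 to 0.14 (Acadm), -0.22 to 0.63 (Hadha) and -0.50 to 0.42 (Ehhadh). Genes called ranged from 0 to 1 in SF_HPD against SF_ConD (1 without SF_HPD 5), 0 to 194 in SF_ConD against SC_ConD (194 without SC_ConD 1) and 0 to 196 in SF_HPD against SC_ConD (1 without SF_HPD 5, 196 without SC_ConD 1).

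The next 3 alternatives were chosen after seeing the data. Without SC_ConD 2 and 3, which leaves 1 library assumed to vary like the other groups, Cpt2 was -0.93 in SF_ConD against SC_ConD, and Cpt2 -0.97 and Hadha -1.05 in SF_HPD against SC_ConD. Without the 5 libraries rich in lymphoid transcripts, Pdk4 was -1.51, Hadha -0.37 and Ehhadh -0.071 in SF_HPD against SF_ConD, Pdk4 0.38, Angptl4 0.0061, Acadm 0.42 and Hadha 0.29 in SF_ConD against SC_ConD, and Cpt1a 0.024, Cpt2 -0.039 and Hadha -0.078 in SF_HPD against SC_ConD. Without the 4 libraries that lean toward long genes, Pdk4 was -0.53 and Cpt1a -0.073 in SF_HPD against SF_ConD, Pdk4 0.18, Acadm 0.027 and Hadha 0.34 in SF_ConD against SC_ConD, and Ehhadh 0.065 in SF_HPD against SC_ConD, and genes called were 162 in SF_ConD against SC_ConD and 172 in SF_HPD against SC_ConD. In that setting SC_ConD held only SC_ConD 2 and 3, both high in hepatocyte transcripts, and the cause was not tested. With 58 reads in all, Cpt1b was in no comparison.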

Other observations

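Among protein-coding genes of the table, 249 share at least 80% of their exon bases with another gene on the same strand, as Cpt1b does. Of these, 246 (98.8%) had a mean under 1 FPKM, against 45.8% of the other 21702. The limit of 80% was chosen after the values were seen.

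Relative to the adipocyte gene Adipoq in the same library, Acadm stood at 1.16 in SF_HPD 2 and at 0.0237 to 0.198 in the other 12 libraries. Cpt2 over Adipoq was 0.694 in SF_HPD 2 and Hadha over Adipoq 0.905, the highest of the 13 libraries for both. The ratios of Angptl4 (0.322), Pdk4 (0.321) and Ehhadh (0.337) to Adipoq were also highest there. Adipoq itself had only 26.1 FPKM in SF_HPD 2, so these ratios do not single out any of the genes. Gapdh, a common reference gene, had 0.337 to 4.77 FPKM, against 168 to 661 FPKM of Actb. This came to 16 to 316 reads of Gapdh per library. Whether reads of Gapdh were lost in the counting was not tested, so its level is uncertain.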
